A study of Mus musculus with 12 samples.

Results

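CA3 and CA2 pyramidal neurons were sought among single nuclei of the mouse hippocampus by a rule on measured transcripts. The rule took nuclei with 500 to 10000 detected genes and at least 1 unique molecular identifier (UMI, a counted RNA molecule) of Slc17a7, the vesicular glutamate transporter of cortical and hippocampal excitatory neurons. They also had at least 1 UMI of 2 or more of the 6 markers Iyd, Nectin3, Cdh24, Bok, Rgs14 and Amigo2. Nuclei with any UMI of Prox1 (dentate granule neurons), Fibcd1 (CA1), Gad1 or Gad2 (inhibitory neurons), or with 2 or more UMIs of Mobp (oligodendrocytes), were left out. Of 184957 retained nuclei, 14070 had Slc17a7, no Gad1 or Gad2 UMI and fewer than 2 Mobp UMIs. They are called the Slc17a7 nuclei, and those outside the rule, with Prox1 or Fibcd1 included, the other Slc17a7 nuclei. The whole rule was met by 1213 nuclei, which is 0.656% of the retained nuclei and 8.62% of the Slc17a7 nuclei. Because these nuclei were chosen by their own counts of those 12 genes, the levels of the 12 genes are given as a description only.

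The nuclei came from the left hippocampi of female mice, 12 in all, and were sorted to remove debris before droplet-based snRNA-seq of 3′ transcript ends. The 3xTg-AD mice carried the human transgenes APPSwe and tauP301L together with a knock-in allele, and the WT mice were their littermates without these alleles. In this line both transgenes are expressed from a Thy1 cassette, which is active in neurons. Each genotype had 3 libraries at 6 months and 3 libraries at 12 months, 1 mouse per library, and p-values measure the spread between these libraries. The libraries are named by their replicate numbers, which are 1, 5 and 9 for 3xTg-AD and 3, 7 and 11 for WT at 6 months, and 2, 6 and 10 for 3xTg-AD and 4, 8 and 12 for WT at 12 months.

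CA3 pyramidal neurons receive mossy fiber input from dentate granule neurons, excite one another through recurrent collaterals and send Schaffer collaterals to CA1. CA2 pyramidal neurons lie between CA3 and CA1, are resistant to synaptic potentiation and take part in social memory. Kainate receptors containing GRIK4 and GRIK5 are known at mossy fiber synapses of CA3, and RGS14, the product of a marker in the rule, limits plasticity in CA2.

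Libraries held 11352 to 19811 retained nuclei. Over all their deposited barcodes, before the limits on detected genes, they had 79177051 to 128323908 UMIs. The nuclei that met the rule were deeper than the other Slc17a7 nuclei, with medians per library of 11470 to 17079 UMIs against 7424 to 13955 UMIs. The rule asks for several low transcripts at once. Whether the selected nuclei were deeper for this reason or because of their cell types was not tested. Of 9172 oligodendrocyte nuclei, defined by at least 5 Mobp UMIs and no Slc17a7 UMI, 79 (0.861%) also had 2 or more of the 6 markers, at median depths of 2568 to 3798 UMIs. Scrublet called 67 of the 1213 nuclei (5.52%) doublets, against 6.79% of the retained nuclei. Among the 1213 nuclei no barcode occurred in several libraries. Over all retained nuclei, 4187 of 180722 distinct barcodes did. Whether barcodes of the 1213 nuclei recurred among the remaining retained nuclei of another library was not counted.

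The label was checked with markers outside the rule, and it held for a minority of the nuclei. The 1213 nuclei formed 17 clusters. One cluster of 265 nuclei (21.8%) carried CA3 markers and is called CA3-like, and one of 78 nuclei (6.43%) carried CA2 markers and is called CA2-like. Together these 343 nuclei were 28.3% of those selected. A further 155 nuclei (12.8%) were thalamus-like, 78 were CA1-like and 637 stayed unnamed. Of the 67 doublets, 59 were unnamed, 7 thalamus-like and 1 CA3-like. Unnamed clusters of 46, 17 and 65 nuclei had enriched markers of oligodendrocytes, oligodendrocyte precursors and astrocytes, with 4.35, 70.6 and 21.5% doublets. Another unnamed cluster, of 67 nuclei, had 20.9% doublets. All these nuclei stayed in the summed counts. Among the unnamed were a cluster of 12 nuclei with 3 mossy cell markers, which shared 5 leading genes with the CA3-like cluster, and one of 18 nuclei with 3 subicular markers, which shared 4 with the CA1-like cluster. At a finer clustering resolution of 1.4, 342 nuclei had the CA3-like or CA2-like names, and all 342 had them before. The selected nuclei as a whole are therefore called by the rule in what follows, and the hippocampal field is named only for the CA3-like and CA2-like clusters.

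The CA3-like cluster was led by Mndal, Ccbe1, Cd109, Ifi203, Nectin3 and Grik4. In CPM, the counts of a gene scaled to a fixed total of summed UMIs, Grik4, a high-affinity kainate receptor subunit, was at 1474 CPM in CA3-like nuclei, 441 in CA2-like nuclei and 133 in the other Slc17a7 nuclei. Trps1, a GATA-type repressor, was at 2465, 260 and 352 CPM in the same order. Of the other CA3 markers, Spock1, Rnf182, Dkk3, Il16, Elavl2 and Cpne4 were higher in CA3-like nuclei than in the other Slc17a7 nuclei. Coch (0.266 against 8.99 CPM) and Plagl1 (3.19 against 7.67 CPM) were lower. Cpne4 and Spock1 were higher still in CA2-like nuclei, at 1865 and 1116 CPM against 1186 and 893 CPM in CA3-like nuclei. Spock1 was also at 1422 CPM in thalamus-like nuclei. In the order CA3-like, CA2-like and other Slc17a7 nuclei, Neurod6, a transcription factor of forebrain pyramidal neurons, was at 211, 147 and 28.7 CPM. Neurod2, of the same marker list, was at 76.3, 105 and 26.4 CPM. Zbtb20, a transcription factor that specifies hippocampal fields, was at 3866, 4976 and 1067 CPM. Both clusters were thus above the other nuclei for these genes. Spink8, also of this list, was lower in CA3-like nuclei than in the other nuclei, at 0.798, 15.2 and 4.97 CPM.

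The CA2-like cluster was led by Gm43154, Map3k15, St8sia6, Acan, Ccdc3 and Amigo2. Ntf3, which encodes neurotrophin-3, was at 165 CPM in CA2-like nuclei, was not counted in CA3-like nuclei and was at 12.0 CPM in the other Slc17a7 nuclei. Map3k15, a kinase gene used as a CA2 marker, was at 129, 0.266 and 3.29 CPM in that order. Acan, the core protein of perineuronal nets, was at 61.6 CPM in CA2-like and 0.266 CPM in CA3-like nuclei, and Necab2, a calcium-binding protein gene, at 74.9, 1.06 and 24.4 CPM. Of the other CA2 markers, Ptpn5, Cacng5, Stard5 and Avpr1b were higher in CA2-like nuclei than in the other Slc17a7 nuclei. Pcp4 was lower, at 69.2 against 146 CPM. Il16, though one of the CA3 markers, was found in both clusters, at 153 CPM in CA2-like and 75.3 CPM in CA3-like nuclei against 14.3 CPM elsewhere.

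The thalamus-like cluster was led by Iyd, Tspear, Bok, Adgrf5, Abhd12b and Dab2, of which Iyd and Bok are in the rule. It had 785 CPM of Tcf7l2 and 863 CPM of Lef1, transcription factors of thalamic neurons, where CA3-like nuclei had 7.18 and 2.66 CPM. Its level of Neurod6 was 1.67 CPM and that of Zbtb20 was 97.2 CPM, both below their levels in the CA3-like, CA2-like and other Slc17a7 nuclei.

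**Figure D1:**
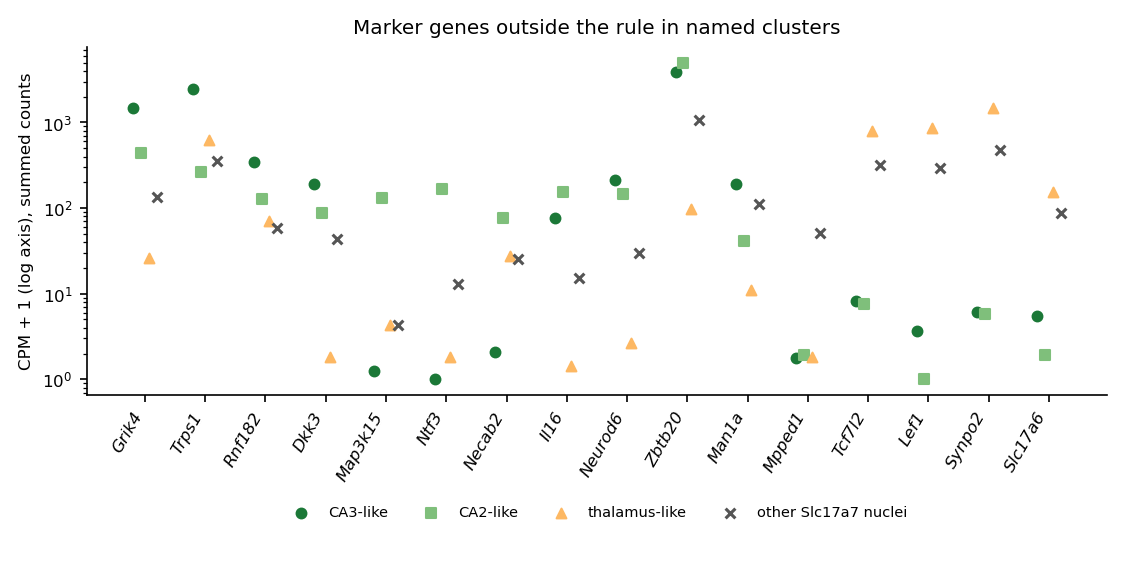
Level of marker genes outside the rule (CPM + 1 of summed counts, log axis) in the CA3-like, CA2-like and thalamus-like clusters and in the Slc17a7 nuclei outside the rule. Grik4 is highest in CA3-like nuclei (1474 CPM), Ntf3 in CA2-like nuclei (165 CPM) and Tcf7l2 in thalamus-like nuclei (785 CPM).

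The 6 markers of the rule were not spread evenly. Nectin3, a cell adhesion gene of CA3, had a UMI in 81.9% of the selected nuclei, Cdh24 in 44.5%, Bok in 36.8%, Rgs14 in 33.3%, Amigo2 in 14.3% and Iyd in 13.1%. In CA3-like nuclei Nectin3 was found in 98.9% and Rgs14 in 6.04%, whereas in CA2-like nuclei Nectin3 was found in 74.4%, Rgs14 in 71.8% and Amigo2 in 67.9%. Iyd was found in 23.8% of CA3-like and 2.56% of CA2-like nuclei.

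Most nuclei met the rule at its limit, with 956 having exactly 2 of the 6 markers and 257 having 3 or more. Just outside it, 2919 Slc17a7 nuclei that met the other conditions had 1 marker. Grik4 was at 145 CPM with 1 marker, 351 CPM with 2 and 782 CPM with 3 or more. Median depth rose along the same steps, from 10236 to 12812 and 14934 UMIs. Of nuclei with 3 or more markers 56.8% were CA3-like or CA2-like, against 20.6% of nuclei with 2.

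Libraries differed widely in what the rule collected. CA3-like and CA2-like nuclei together numbered 31, 53 and 6 in 3xTg-AD replicates 1, 5 and 9 at 6 months, and 0, 69 and 5 in WT replicates 3, 7 and 11. At 12 months they numbered 0, 1 and 68 in 3xTg-AD replicates 2, 6 and 10, and 34, 27 and 49 in WT replicates 4, 8 and 12. Thus 5 libraries (3xTg-AD replicates 9, 2 and 6 and WT replicates 3 and 11) had at most 6 such nuclei, and the 3 WT libraries at 12 months all had at least 27. Thalamus-like nuclei, by contrast, numbered 7 to 21 in each of the 12 libraries.

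Grik4 is one of the markers that named the CA3-like cluster, so its level in the selected nuclei is not a separate measure of these counts. It was at 452, 888 and 338 CPM in the 3xTg-AD libraries at 6 months and at 82.4, 610 and 289 CPM in the WT libraries. At 12 months it was at 72.2, 154 and 767 CPM in the 3xTg-AD libraries and at 791, 477 and 575 CPM in the WT libraries. The groups overlapped at both ages. The summed level of 10 CA3 markers outside the rule ranged, at 6 months, over 2674 to 4931 CPM for 3xTg-AD and 2183 to 4050 CPM for WT, and, at 12 months, over 2089 to 4443 CPM for 3xTg-AD and 3608 to 4338 CPM for WT. That of 5 thalamic markers ranged over 579 to 1030, 430 to 1893, 376 to 624 and 742 to 1650 CPM in the same order.

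In 3xTg-AD replicates 2 and 6 at 12 months, 2 unnamed clusters made up much of the selected nuclei. One cluster of 156 nuclei was led by Col6a1, Bmpr1b, Abi3bp, Rgs14 and Htr2a and had 56 nuclei from replicate 2, 33 from replicate 6, 29 from WT replicate 7 and 24 from WT replicate 11, with 0 from the WT libraries at 12 months. Another of 74 nuclei, led by Igfn1, Ankfn1, Rasgef1c, Pdzrn3 and Rgs14, had 65 nuclei from replicate 2 and 9 from replicate 6, and may be a feature of a single library. Dentate granule nuclei were taken as Slc17a7 nuclei with a UMI of Prox1 and of at least 1 of C1ql2, Dsp, Tdo2 and Lct. They were also few in 3xTg-AD replicates 2 and 6 (6 and 12), against 92 in 3xTg-AD replicate 10 and 111 to 203 in the WT libraries at 12 months. Of the 6-month libraries with at most 6 CA3-like or CA2-like nuclei, 3xTg-AD replicate 9 had 160 dentate granule nuclei. WT replicates 3 and 11 had 22 and 44.

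**Figure D2:**
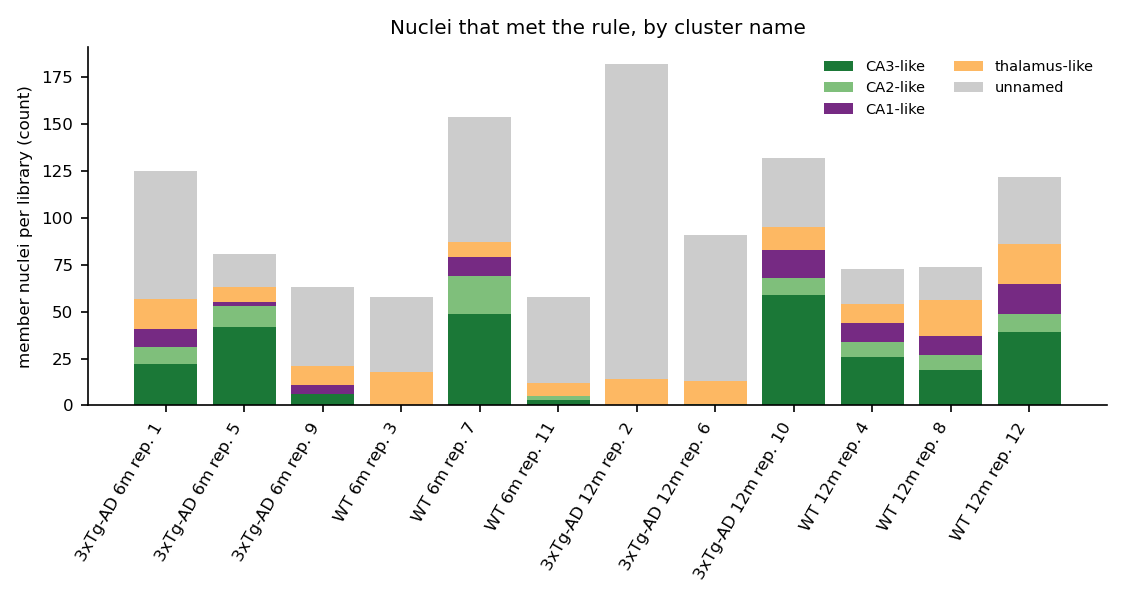
Number of nuclei that met the rule in each of the 12 libraries, split by the name of their cluster. CA3-like and CA2-like nuclei number 27 or more in 7 libraries and at most 6 in the other 5, while 3xTg-AD 12-month replicate 2 has the most selected nuclei (182) and none of them.

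Among retained nuclei at 6 months, the selected nuclei made up 0.582% ± 0.272 (SD, n = 3) for 3xTg-AD and 0.603% ± 0.317 (SD, n = 3) for WT, a difference of -0.0209 percentage points (two-sided exact permutation test, p = 0.9). They made up 0.818% ± 0.341 (SD, n = 3) for 3xTg-AD and 0.680% ± 0.351 (SD, n = 3) for WT at 12 months, a difference of 0.138 percentage points (exact permutation test, p = 0.5). Both differences turned when CA3-like and CA2-like nuclei alone were counted, to 0.0413 percentage points at 6 months and -0.158 at 12 months (exact permutation, p = 0.8 and 0.3), and when at least 3 markers were asked for, to 0.0317 and -0.0349. With 3 libraries against 3, the smallest p that this test allows is 0.1. Among Slc17a7 nuclei, the share was 7.56% ± 1.30 (SD, n = 3) for 3xTg-AD and 9.59% ± 1.56 for WT at 6 months, and 10.4% ± 2.33 and 6.74% ± 2.04 at 12 months, a difference of -2.04 and of 3.63 percentage points (exact permutation test, p = 0.2 for both). The 12-month libraries of the genotypes overlapped, at 12.6, 7.94 and 10.6% for 3xTg-AD and 4.78, 6.58 and 8.85% for WT. With both genotypes together, the share of retained nuclei was 0.749% ± 0.318 (SD, n = 6) in 12-month libraries and 0.593% ± 0.264 (SD, n = 6) in 6-month libraries. An exact permutation test of 6 libraries against 6, with the genotypes pooled, gave p = 0.387. The differences were 0.236 percentage points for 3xTg-AD alone and 0.0764 for WT alone. Among retained nuclei, none of these differences was larger than the spread between libraries, and the genotype differences among Slc17a7 nuclei were larger than the SD of each group but did not pass the test.

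The expression of CA3-like and CA2-like nuclei was described against the other Slc17a7 nuclei, with levels pooled over all libraries. A gene was counted as higher or lower if the pooled levels differed at least 2-fold, if the higher of them reached 10 CPM, and if each of the 7 libraries with at least 10 CA3-like or CA2-like nuclei lay on the same side. Of 9514 genes at that level, 385 (4.05%) were higher and 1146 (12.0%) lower. These are descriptions without a test, since the clusters were formed from the same counts. The 12857 other Slc17a7 nuclei included 490 with Fibcd1 but no Prox1 UMI and 1176 dentate granule nuclei. Their pooled levels of the thalamic markers Tcf7l2, Lef1 and Synpo2 were 316, 289 and 472 CPM. The CA1-like nuclei were not compared, so whether a difference is particular to CA3 and CA2 was not tested.

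Among kainate receptor genes, 4 of 8 were higher and 3 lower. Grik4, whose high level had helped to name the CA3-like cluster, was at 1248 CPM against 133 CPM elsewhere, with 1085 to 1421 CPM over the 7 libraries. Its high-affinity partner Grik5 was at 241 CPM against 117 CPM, and the auxiliary subunits Neto1 and Neto2 were at 518 against 156 CPM and 165 against 65.0 CPM. The low-affinity subunits Grik1 (4.78 against 304 CPM) and Grik3 (2.49 against 84.5 CPM) were lower, and Grik2 was similar (1378 against 1245 CPM). C1ql3, a secreted ligand of the C1q family, was nearly absent, at 1.246 against 55.1 CPM. Beside Grik4, Grik5 and the auxiliary genes were thus higher, and Grik1 and Grik3 lower.

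Of 11 AMPA receptor genes, 3 were higher and 3 lower. Gria1 was at 3474 CPM against 1408 CPM, with 3205 to 3689 CPM in the 7 libraries, and Gria4 at 155 against 843 CPM. The auxiliary genes Shisa6 (1157 against 511 CPM) and Cacng8 (135 against 56.0 CPM) were higher and Cnih3 (2.49 against 68.4 CPM) was lower. Shisa9, which encodes CKAMP44, divided the 2 fields, at 386 CPM in CA2-like and 13.6 CPM in CA3-like nuclei against 548 CPM elsewhere. Cacng3 also differed, at 65.7 CPM in CA3-like nuclei and with no count in CA2-like nuclei.

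No NMDA receptor gene was 2-fold higher, and Grin2c (0.831 against 46.1 CPM), Grin2d (2.91 against 20.3 CPM) and Grin3a (21.4 against 107 CPM) were lower. The main subunits Grin1, Grin2a and Grin2b lay within 2-fold, at 471, 2482 and 1937 CPM against 419, 1856 and 1858 CPM. Of 6 metabotropic glutamate receptor genes at that level, Grm3, Grm4 and Grm8 were lower and none was higher. Glutamate receptor genes outside the AMPA and kainate lists were thus similar or lower.

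GABA-A receptor genes were mostly lower, 6 of 11. Gabra5, whose subunit forms extrasynaptic receptors of hippocampal pyramidal neurons, was the 1 higher gene, at 162 against 62.6 CPM with 136 to 190 CPM in the 7 libraries. Gabrd, the subunit of granule neuron and thalamic tonic receptors, was at 1.66 against 55.0 CPM. Gabra3, Gabra4, Gabrb2, Gabrg1 and Gabrg3 were the other lower genes, with Gabrg3 at 29.9 against 504 CPM.

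**Figure D3:**
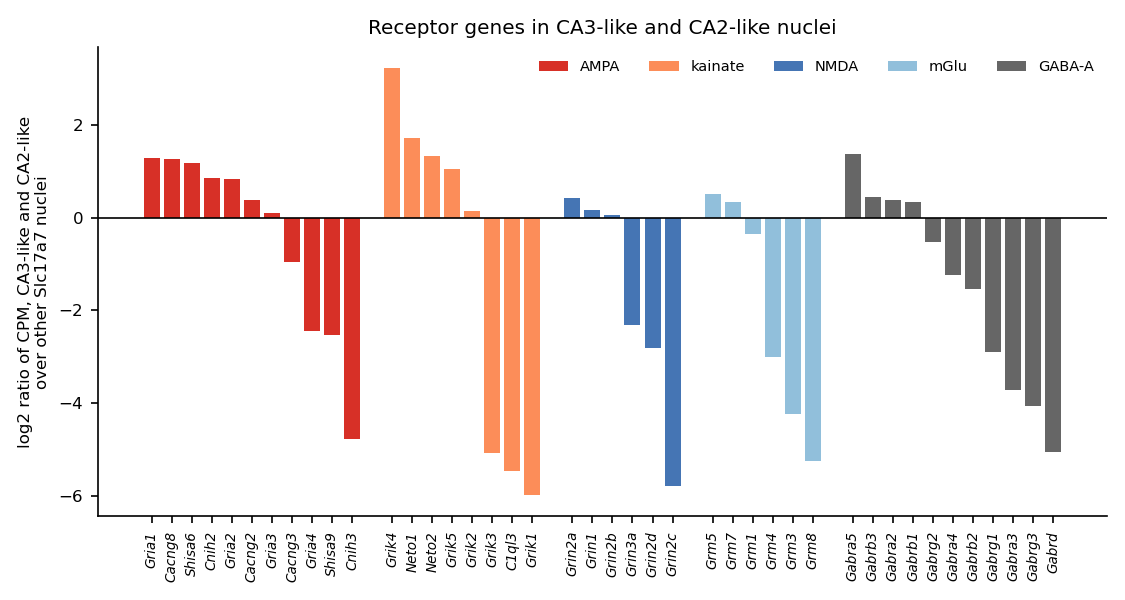
Log2 ratio of the pooled level (CPM) of receptor genes in CA3-like and CA2-like nuclei over that in the other Slc17a7 nuclei, by receptor family. Grik4, a marker that named the CA3-like cluster, has the highest ratio (9.38 on the linear scale), and most GABA-A receptor genes lie below 0 with Gabra5 above it.

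Channel genes were mostly within 2-fold. Kcnq5, an M-type potassium channel gene, was at 2348 against 985 CPM, Cacna1a, the P/Q-type channel of presynaptic terminals, at 1397 against 673 CPM, and the auxiliary Cacna2d3 at 1640 against 728 CPM. The T-type genes Cacna1g (8.31 against 97.2 CPM) and Cacna1i (6.85 against 31.5 CPM) were lower. Kcnh7, an ERG-type potassium channel gene, was at 187 CPM in CA2-like and 9.57 CPM in CA3-like nuclei against 974 CPM elsewhere. In all, 3 of 40 potassium, HCN, calcium and sodium channel genes were higher and 6 lower, near the shares over all genes.

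Among 19 genes of postsynaptic kinases and scaffolds, Homer3 (56.9 against 5.26 CPM) and Prkca, which encodes protein kinase C alpha (1960 against 427 CPM), were higher and none was lower. Camk2a, the alpha subunit of calcium/calmodulin kinase II, was at 1181 against 734 CPM. Prkcb divided the fields, at 607 CPM in CA3-like and 60.7 CPM in CA2-like nuclei. Camk4 and Sorl1, a sorting receptor of APP, ran the other way, at 227 and 141 CPM in CA3-like and 599 and 378 CPM in CA2-like nuclei.

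Genes of synaptic adhesion and axon guidance gave the most higher genes, 13 of 33 at that level, with 4 lower. The Eph receptor genes Epha5 (2918 against 825 CPM), Epha6 (6065 against 1870 CPM) and Ephb1 (419 against 88.0 CPM) were among them, as were Epha4, Epha7 and Ephb2. The netrin receptor gene Dcc was at 2498 against 761 CPM, the semaphorin receptor gene Nrp1 at 621 against 191 CPM and Nrxn3, a presynaptic neurexin, at 9755 against 4062 CPM. Several of these were mainly CA3-like, with Cdh9, a cadherin of mossy fiber synapses, at 697 against 51.2 CPM in CA2-like nuclei, Slit2 at 651 against 44.6 CPM and Sema3e at 359 against 41.7 CPM. Lrrtm3, Lrrtm4, Unc5d and Sema3a were lower, and no count of Sema3a was found in the 343 nuclei.

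Genes of amyloid and tau biology were similar to those of the other Slc17a7 nuclei. App was at 445 against 548 CPM and Mapt at 380 against 334 CPM. Of 24 genes at that level, Aph1b, a gamma-secretase subunit, was higher (30.1 against 14.4 CPM, with 70.1 CPM in CA2-like nuclei), and Apoe, an astrocyte transcript, was lower (12.9 against 49.2 CPM). No gene of heat shock (15) or cytosolic ribosomal proteins (72) differed 2-fold in all 7 libraries, and of 66 nuclear genes of the respiratory chain 1, Cox7b2, was lower.

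Transcripts encoded by the mitochondrial genome were lower, 4 of 6 at that level, all of them rare in these nuclei. They were mt-Co1 (9.97 against 22.5 CPM), mt-Co2 (9.35 against 20.5 CPM), mt-Co3 (12.7 against 25.9 CPM) and mt-Cytb (6.85 against 16.0 CPM). Of 12 activity-regulated genes 1 was higher and 3 lower. Nr4a3, an orphan nuclear receptor gene, was at 86.0 against 16.8 CPM, with 71.6 to 101 CPM in the 7 libraries. The transcription factor gene Egr1 (8.51 against 19.0 CPM), the phosphatase gene Dusp1 (2.70 against 10.2 CPM) and the sorting receptor gene Sorcs3 (106 against 415 CPM) were lower.

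Genotype effects at 6 months were tested with edgeR (quasi-likelihood F test) on counts summed over the selected nuclei of each library. Of 9249 genes tested, 2 (0.0216%) were called, both lower in 3xTg-AD, where a call required an adjusted p under 0.05 and a log2 fold change of more than 0.2 in either direction. Both were unnamed or uncharacterized loci, and 469 genes had an unadjusted p under 0.05.

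Gm17167, a non-coding transcript on chromosome 4 (chr4:42206998-42235313, plus strand, GRCm38), was at 0.510, 0 and 0 CPM in the 3xTg-AD libraries and 35.7, 28.8 and 44.2 CPM in the WT libraries at 6 months. This was 1 count against 130, a ratio with a counting interval of 0.00019 to 0.0430 (edgeR adjusted p = 0.00514). It was at 0 CPM in all 3 3xTg-AD libraries at 12 months and at 10.9, 34.8 and 14.3 CPM in WT, where it was not called (edgeR adjusted p = 0.107). The genotypes did not overlap at either age, as for 10.9% of all genes tested at 6 months and 15% at 12 months. In the other Slc17a7 nuclei it was at 0 to 0.340 CPM in the 6 3xTg-AD libraries and 21.2 to 41.8 CPM in the 6 WT libraries, so that it was also seen outside the selected nuclei. Gm17167 overlaps Gm13301 on the same strand, so its reads may be split between them. With 1 library left out the log2 fold change was -8.34 to -6.30. The call was lost without 3xTg-AD replicate 1 (edgeR adjusted p = 0.0987) and when nuclei with UMIs of Slc17a6, Tcf7l2 or Foxp2, markers of other brain regions, were left out (edgeR adjusted p = 0.0655). With at least 3 markers asked for, its counts were too low for the test.

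AC149090.1, a protein-coding locus on the unplaced scaffold JH584304.1, was at 201, 120 and 145 CPM for 3xTg-AD and 553, 731 and 743 CPM for WT at 6 months (log2 fold change -2.07 ± 0.22 SE, edgeR adjusted p = 0.0281). At 12 months the genotypes overlapped, at 453, 548 and 740 CPM in 3xTg-AD and 678, 222 and 564 CPM in WT. The other Slc17a7 nuclei had 161 to 200.2 CPM and 571 to 927 CPM at 6 months. With 1 library left out the log2 fold change was -2.29 to -1.95. The call was lost when any of 5 of the 6 libraries was left out, all but WT replicate 3, and also with at least 3 markers, without nuclei that had Slc17a6, Tcf7l2 or Foxp2 UMIs and with all 12 libraries in 1 fit.

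At 12 months 1 of 10270 genes was called (0.00974%), higher in 3xTg-AD. Gm15594, a transcript antisense to Cttnbp2 on chromosome 6 (chr6:18424684-18427885, plus strand), was at 70.1, 112 and 125 CPM in 3xTg-AD and 18.2, 17.9 and 23.2 CPM in WT libraries, a log2 fold change of 2.37 ± 0.25 SE (edgeR adjusted p = 0.0365). At 6 months the same genotypes also did not overlap, at 80.1, 109 and 102 CPM against 22.8, 56.2 and 33.5 CPM, but it was not called. The other Slc17a7 nuclei had 84.1 to 162 CPM in 3xTg-AD and 21.8 to 75.1 CPM in WT libraries over both ages. The sources used here do not give the strand setting of the counting, so reads of Cttnbp2 cannot be told apart with certainty. With 1 library left out the log2 fold change was 2.16 to 2.57. The call was lost without 3xTg-AD replicate 6 or any 1 of the 3 WT libraries, after removal of doublets (edgeR adjusted p = 0.0569) and with at least 3 markers (edgeR adjusted p = 0.0659).

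The count of calls at 12 months rested on a single library. Without 3xTg-AD replicate 10, the 3xTg-AD library with 68 CA3-like and CA2-like nuclei, 1213 genes were called, whereas no other single library left out gave more than 1. The 2 3xTg-AD libraries then left had 0 and 1 CA3-like or CA2-like nuclei, and the WT libraries had 27 to 49. DESeq2 called 7 genes at 6 months and 167 at 12 months. With the percentage of CA3-like and CA2-like nuclei as a covariate over all 12 libraries, an alternative chosen after the data were seen, 5 genes were called at 6 months and 26 at 12 months.

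Genes tied to the transgenes were not called. Thy1 was at 75.0, 55.1 and 84.8 CPM for 3xTg-AD and 42.7, 34.0 and 44.2 CPM for WT at 6 months, a log2 fold change of 0.89 ± 0.19 SE (edgeR adjusted p = 0.583), and without a filter on low counts the adjusted p of edgeR was 0.0167. At 12 months it was at 74.4, 84.9 and 68.9 CPM against 44.6, 54.7 and 73.9 CPM (log2 fold change 0.42, edgeR adjusted p = 0.375). App and Mapt had log2 fold changes of 0.11 and 0.10 at 6 months and 0.01 and 0.03 at 12 months. The counts were made on the mouse genome mm10, so App and Mapt here are counts assigned to the mouse genes. Whether reads of the human transgenes were among them was not tested. In the other Slc17a7 nuclei Thy1 was at 64.8 to 78.9 CPM for 3xTg-AD and 44.8 to 64.4 CPM for WT at 6 months. At 12 months it was there at 75.8 to 98.4 against 49.8 to 70.6 CPM. In CA3-like and CA2-like nuclei over both ages its log2 fold change was 0.07, with 39.6, 40.1 and 44.5 CPM for 3xTg-AD and 29.1, 44.1, 49.0 and 59.9 CPM for WT.

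No gene of the receptor, channel, kinase, adhesion, activity, stress, amyloid, respiratory chain or ribosomal lists was called for genotype at either age, where 0.0216% and 0.00974% of all genes were called, so that this says nothing particular to the lists. The 11 AMPA receptor genes had a median log2 fold change of -0.08 at 6 months and -0.05 at 12 months, the 8 kainate receptor genes 0.22 and 0.15, and the 11 GABA-A receptor genes -0.04 and 0.05, beside medians of 0.00 over all genes. For the 24 amyloid and tau genes tested the medians were 0.01 and 0.02. The 6 NMDA receptor genes had medians of -0.32 and -0.31, and the activity-regulated genes -0.03 (11 tested) and 0.53 (15 tested). In the adhesion and guidance list (33 genes) they were 0.24 and -0.02, in the heat shock list (15) -0.20 and 0.18, and in the other function lists between -0.12 and 0.14. The CA3 marker list, with 9 of 10 genes tested and none called, had medians of 0.72 at 6 months and -0.60 at 12 months, and the forebrain pyramidal list, with 3 genes tested, 0.97 and -0.78. The thalamic list, with 5 of 5 genes tested, had medians of -0.20 and -1.24, and the CA2 list -0.34 (5 tested) and -0.57 (7 tested). Dentate granule markers had -0.11 and 2.02 with 2 genes tested, and the single subicular gene tested had -0.61 and 1.90. No marker of these lists was called. The CA3 list also named the CA3-like cluster, so its direction is not independent of the number of CA3-like and CA2-like nuclei. That number was, at 6 months, 90 for 3xTg-AD and 74 for WT, and, at 12 months, 69 and 110. Single libraries made up most of 2 of these totals, with 69 of the 74 from WT replicate 7 and 68 of the 69 from 3xTg-AD replicate 10.

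**Figure D4:**
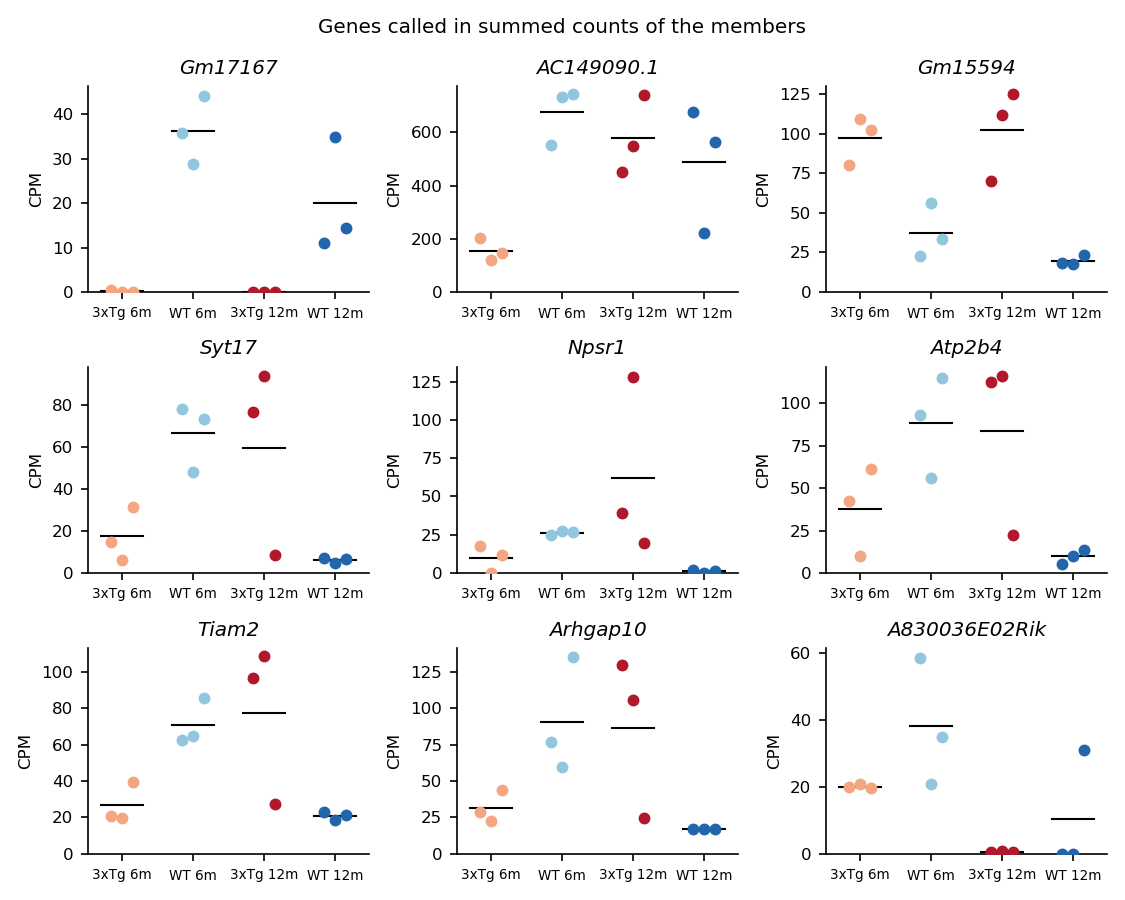
Level (CPM of counts summed over the selected nuclei) of the genes called for genotype or age in each library, by group, with a bar at the mean of 3 libraries. Gm17167 is at or below 0.510 CPM in all 6 3xTg-AD libraries, and Syt17 is at 4.97 to 7.29 CPM in the WT libraries at 12 months and at 8.74 CPM in 3xTg-AD 12-month replicate 10.

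For age in WT, 5 of 9361 genes were called (0.0534%), all lower at 12 months. Syt17, a synaptotagmin gene, was at 78.4, 48.2 and 73.6 CPM at 6 months and 7.29, 4.97 and 6.56 CPM at 12 months (log2 fold change -3.32 ± 0.29 SE, edgeR adjusted p = 0.00521). Atp2b4, a plasma membrane calcium pump, was at 93.3, 56.2 and 115 CPM and then 5.46, 9.94 and 13.7 CPM (-3.05 ± 0.33 SE, edgeR adjusted p = 0.0120). Npsr1, the neuropeptide S receptor, fell by 4.50 ± 0.49 SE on the log2 scale (edgeR adjusted p = 0.0120) from 24.8 to 27.4 CPM to at most 1.82 CPM, and the ages did not overlap for any of these genes, as for 12.8% of all genes tested.

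Tiam2, an activator of Rac signaling, fell from 62.5, 64.7 and 85.7 CPM to 22.8, 18.9 and 21.5 CPM (-1.69 ± 0.20 SE, edgeR adjusted p = 0.0208). Arhgap10, a GTPase-activating protein gene, fell from 76.4, 59.5 and 135 CPM to 17.3, 16.9 and 17.3 CPM (-2.30 ± 0.31 SE, edgeR adjusted p = 0.0380). Syt17, Npsr1 and Atp2b4 were nearly absent from the CA3-like and CA2-like nuclei. There Syt17 was at most 1.46 CPM, Npsr1 at most 3.68 CPM and Atp2b4 at most 4.15 CPM in each of the 7 libraries, Arhgap10 was at 9.32 to 17.5 CPM, and Tiam2 at 17.6 to 36.3 CPM. A single WT library at 6 months had enough of these nuclei, so no spread between WT libraries of that age stands behind an age difference in them. Over all selected nuclei of the 3xTg-AD libraries, Syt17 was at 14.8, 6.32 and 31.4 CPM in replicates 1, 5 and 9 at 6 months and at 76.9, 93.9 and 8.74 CPM in replicates 2, 6 and 10 at 12 months. WT replicate 7, with 69 CA3-like or CA2-like nuclei, had 48.2 CPM.

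The 5 calls did not hold with every WT library left out, while the log2 fold changes stayed close, at -3.52 to -3.17 for Syt17, -5.02 to -4.08 for Npsr1, -3.39 to -2.83 for Atp2b4, -1.80 to -1.58 for Tiam2 and -2.55 to -1.95 for Arhgap10. The calls of Syt17 and Npsr1 were lost without replicate 4 or 12, and those of Atp2b4, Tiam2 and Arhgap10 without replicate 4, 8, 11 or 12. Npsr1 was also lost without replicate 11. The number called ranged from 0, without replicate 4 or 12, to 48 without replicate 3 and 218 without replicate 7, the WT library at 6 months with 69 CA3-like and CA2-like nuclei. With all 12 libraries in 1 fit or at least 3 markers none was called, and with the composition covariate 5 were, of which 1, Atp2b4, was among the 5.

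For age in 3xTg-AD, 1 of 10495 genes was called (0.00953%). A830036E02Rik, antisense to Krt12 on chromosome 11, was at 19.9, 20.8 and 19.7 CPM at 6 months and 0.719, 0.816 and 0.514 CPM at 12 months, 79 counts against 4 (log2 fold change -4.74 ± 0.37 SE, edgeR adjusted p = 0.00964). The ages did not overlap for this gene, as for 9.8% of all genes tested. In WT it was at 58.6, 20.8 and 34.8 CPM at 6 months and at 0, 0 and 31.0 CPM at 12 months, so that WT replicate 12 was as high as the younger libraries. With 1 library left out the log2 fold change was -4.81 to -4.59. The call was lost without any of 5 of the 6 libraries, and without replicate 10, the sixth, 447 genes were called. It was lost also with sums thinned to the smallest total, all 12 libraries in 1 fit, the composition covariate, or no nuclei with Slc17a6, Tcf7l2 or Foxp2 UMIs (edgeR adjusted p up to 0.894), and with at least 3 markers it was not among the genes tested. In the other Slc17a7 nuclei the levels were 20.7 to 25.8 CPM at 6 months and 0.185 to 0.766 CPM at 12 months in the 3xTg-AD libraries.

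The interaction of genotype and age called 0 of 10373 genes (0%) with edgeR, with 1094 at an unadjusted p under 0.05, and DESeq2 called 85. Without 3xTg-AD replicate 10 edgeR called 475.

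Whether the genotype effect in the selected nuclei differed from that in the other Slc17a7 nuclei of the same libraries was tested as a difference of differences. At 6 months 0 of 13887 genes differed (0%; edgeR, 644 at an unadjusted p under 0.05, DESeq2 not run). At 12 months 5 of 15112 genes did (0.0331%), with C1ql3, Ipcef1, Car12 and Arhgap10 more positive and Clmp more negative in the selected nuclei. C1ql3 was at 47.4, 49.8 and 17.0 CPM in 3xTg-AD and 2.73, 1.99 and 8.94 CPM in WT libraries, against 40.9 to 68.8 and 36.3 to 77.9 CPM in the other Slc17a7 nuclei (difference of log2 fold changes 2.73 ± 0.31 SE, edgeR adjusted p = 0.0234). The CA3-like and CA2-like nuclei held at most 2.92 CPM of C1ql3 in each of 7 libraries. Clmp, an adhesion gene, was at 143, 96.3 and 140 CPM in 3xTg-AD and 188, 168 and 202 CPM in WT libraries, and at 110.5, 107 and 79.0 against 30.2, 44.9 and 45.2 CPM in the other nuclei. In CA3-like and CA2-like nuclei at 12 months Clmp was at 176 CPM in 3xTg-AD replicate 10 and 281, 349 and 383 CPM in the WT libraries. Without 3xTg-AD replicate 10, 491 genes differed.

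Because the composition of the selected nuclei differed between libraries, the genotypes were also compared in the CA3-like and CA2-like nuclei alone, a comparison chosen after the data were seen. It used the 7 libraries with at least 10 such nuclei, 3 from 3xTg-AD (replicates 1 and 5 at 6 months and 10 at 12 months) and 4 from WT (replicate 7 at 6 months and 4, 8 and 12 at 12 months), with age as a covariate. Of 7446 genes, 13 were called (0.175%), 2 higher (0.0269%) and 11 lower (0.148%) in 3xTg-AD, and 11 of the 13 did not overlap between the genotypes, as for 6.03% of all genes tested.

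Col11a1, a fibrillar collagen chain, had the smallest adjusted p among genes that did not overlap. It was at 30.3, 18.0 and 37.3 CPM in the 3xTg-AD libraries and 166, 93.7, 222 and 102 CPM in the WT libraries, a log2 fold change of -2.29 ± 0.29 SE (edgeR adjusted p = 0.00013). It was called whichever of the 7 libraries was left out, with an adjusted p of at most 0.0218. Over all selected nuclei Col11a1 was not called, with 49.5, 28.0 and 61.6 CPM for 3xTg-AD and 16.9, 131 and 20.1 CPM for WT at 6 months and 8.98, 8.16 and 48.3 against 78.3, 141 and 92.4 CPM at 12 months. Col11a1 was also a leading gene of the CA1-like cluster, and in the other Slc17a7 nuclei it was at 20.3 to 30.1 CPM in 3xTg-AD and 20.4 to 55.4 CPM in WT libraries.

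Cfap54, a gene of ciliary axonemes, was at 6.99, 8.29 and 5.17 CPM in 3xTg-AD and 45.7, 45.9, 89.4 and 43.8 CPM in WT CA3-like and CA2-like nuclei (log2 fold change -2.91 ± 0.39 SE, edgeR adjusted p = 0.000222), and was lost without 3xTg-AD replicate 10 (adjusted p = 0.0537). Bet1, a vesicle SNARE of Golgi transport, was at 11.6, 6.91 and 6.21 CPM against 32.2, 20.2, 34.6 and 39.4 CPM (-2.05 ± 0.39 SE, edgeR adjusted p = 0.0218). Gm17167 was at 2.33, 0 and 0 CPM against 25.9, 7.35, 28.8 and 14.6 CPM, 1 count against 49 with a counting interval of the ratio of 0.000607 to 0.143 (edgeR adjusted p = 0.00591). Gm15594 was higher in 3xTg-AD, at 51.2, 92.6 and 102 CPM against 43.6, 5.51, 14.4 and 14.6 CPM (1.88 ± 0.34 SE, edgeR adjusted p = 0.0128). Its difference was 0.81 without 3xTg-AD replicate 10 and 3.14 without WT replicate 7, and the call was lost without 3xTg-AD replicate 10 or WT replicate 4. Bet1 and Cfap54 also separated the genotypes in the other Slc17a7 nuclei, where Bet1 was at 7.94 to 11.5 CPM in the 6 3xTg-AD and 24.4 to 36.9 CPM in the 6 WT libraries, and Cfap54 at 17.9 to 44.8 and 83.7 to 124 CPM.

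Sorcs2, a sorting receptor of neurotrophin signaling, was at 112, 108 and 89.0 CPM in 3xTg-AD and 211, 136, 205 and 199 CPM in WT libraries (-0.96 ± 0.17 SE, edgeR adjusted p = 0.00970). Ntm, an adhesion molecule, and Cdh18, a cadherin, fell by 0.94 ± 0.19 and 0.97 ± 0.20 SE (edgeR adjusted p = 0.0290 for both), and Galnt9, an enzyme of O-glycosylation, by 1.07 ± 0.21 SE. Of the 7 fits with 1 library left out, Ntm was lost in 4, Cdh18 in 5 and Galnt9 in 6, and the difference of Ntm without 3xTg-AD replicate 10 was -0.54. Slc2a13, a myo-inositol transporter, was higher, at 79.2, 92.6 and 99.4 CPM against 43.6, 36.8, 60.6 and 27.8 CPM (1.19 ± 0.23 SE, edgeR adjusted p = 0.0230). In the other Slc17a7 nuclei Slc2a13 was at 344 to 546 CPM in 3xTg-AD and 434 to 613 CPM in WT libraries, which overlapped.

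Shisa9 was the 1 called gene of the receptor and channel lists, at 86.2, 96.8 and 30.01 CPM in 3xTg-AD and 145, 99.2, 95.2 and 108 CPM in WT libraries (-1.09 ± 0.22 SE, edgeR adjusted p = 0.0290). The genotypes overlapped, and without 3xTg-AD replicate 10 the difference was -0.62 and was not called. It was -1.76 without WT replicate 7, and the call was lost also without 3xTg-AD replicate 1 or WT replicate 4. Replicate 10 had 9 CA2-like nuclei beside 59 CA3-like, and Shisa9 was mainly a CA2-like transcript. The part of this proportion in the difference was not tested. Gm47283 was called too (-1.63 ± 0.20 SE, edgeR adjusted p = 0.000116), with overlapping libraries. Gm1976, a non-coding transcript, was at 23.3, 19.4 and 25.9 CPM in 3xTg-AD and 71.6, 49.6, 83.6 and 48.2 CPM in WT libraries (-1.44 ± 0.27 SE, edgeR adjusted p = 0.0181). It also separated the genotypes in the other Slc17a7 nuclei, at 77.7 to 83.5 CPM in 3xTg-AD and 89.4 to 128 CPM in WT libraries.

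The marker and function lists otherwise held no called gene in this comparison. The 8 CA3 markers tested had a median log2 fold change of 0.04 and the 6 CA2 markers -0.57, beside 0.00 over all genes. The 5 kainate receptor genes tested had a median of 0.28, the 8 GABA-A receptor genes -0.05 and the 21 amyloid and tau genes -0.01.

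**Figure D5:**
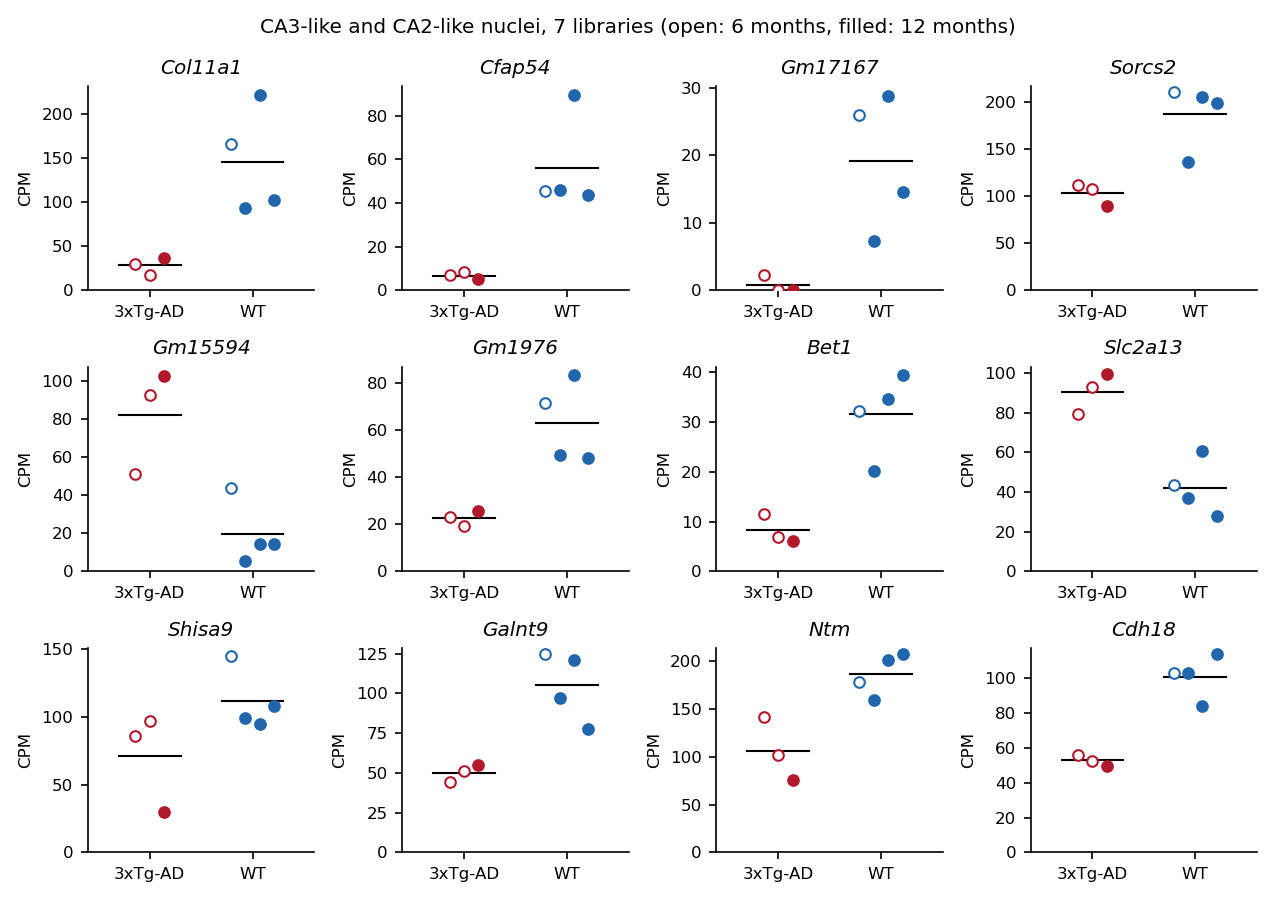
Level (CPM of summed counts) of 12 genes called for genotype in CA3-like and CA2-like nuclei, 1 point per library (open at 6 months, filled at 12 months) with a bar at the mean. Col11a1 lies at 18.0 to 37.3 CPM in the 3 3xTg-AD libraries and 93.7 to 222 CPM in the 4 WT libraries, and Shisa9 overlaps.

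Except for Col11a1, each of these calls was lost when at least 1 of the 7 libraries was left out, with 7 to 26 genes called over the 7 fits. 3xTg-AD replicate 10, the only 3xTg-AD library at 12 months, was one of them for each of the other 11 genes shown. Genotype and age were unbalanced over the 7 libraries, and the 3xTg-AD libraries held 31, 53 and 68 of these nuclei.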

How the data were processed

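The authors aligned the reads to mm10 with Cell Ranger 6.1.1 (per the labels) and deposited matrices of raw UMI counts per gene and nucleus. These counts were used without correction for ambient RNA. The members, marker lists and gene lists were chosen with earlier results of these data known. Counts of 2000 variable genes of the selected nuclei were scaled to 10000 UMIs, reduced to 30 components and clustered with scanpy 1.11.5 (15 neighbours, Leiden resolution 0.7). A cluster took a name from markers outside the rule with a mean log2 enrichment of at least 1.25 over the other Slc17a7 nuclei and 3 markers in at least 5% of nuclei, limits that were revised once the clusters were known but ahead of the expression tests. Clusters with a glial list enriched by 1 or more stayed unnamed, as did, by a limit added after the expression tests, those whose 10 leading genes held fewer of their own markers than genes leading a larger cluster of another name. Doublets were called with Scrublet and kept. Counts summed per library were tested with edgeR 4.0.16 (TMM, filterByExpr, quasi-likelihood F test, two-sided, Benjamini-Hochberg), which was tested on simulated data. SE is the absolute log2 fold change divided by the square root of F. DESeq2 1.42.0 was the alternative test. Named genes were up to 12 called genes per direction with the smallest adjusted p whose groups did not overlap, called list members, genes called for the differences of effects, and 3 genes tied to the transgenes. Some items are not reported here. Gm47283 was named after its values were seen. Positions are from GENCODE release M21. Intervals of count ratios cover counting error only.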

Additional observations from a re-analysis of the deposited data

Results flagged for a closer look

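At 12 months, 5 genes had a genotype effect in the selected nuclei that differed from that in the other Slc17a7 nuclei of the same libraries by a test of the difference itself (edgeR). The differences of the log2 fold changes, 3xTg-AD against WT, were 2.73 for C1ql3, 2.32 for Ipcef1, 2.15 for Car12, 1.35 for Arhgap10 and -1.86 for Clmp, with adjusted p of 0.0234, 0.0234, 0.0234, 0.0237 and 0.0255. Ipcef1 was at 83.7, 89.8 and 24.2 CPM in the 3xTg-AD libraries and 10.0, 2.98 and 7.75 CPM in the WT libraries, and Car12 at 25.9, 44.9 and 15.9 CPM and 4.55, 3.98 and 7.75 CPM. For each of the 5 genes the call was lost without 3xTg-AD replicate 2 or 6 or WT replicate 8 or 12, and the difference stayed close, at 2.60 to 3.26 for C1ql3, 2.07 to 2.65 for Ipcef1, 2.08 to 2.22 for Car12, 1.30 to 1.46 for Arhgap10 and -2.09 to -1.62 for Clmp. With the sums of the other nuclei thinned to those of the selected nuclei, 7 genes were called, among them 4 of the 5, and Arhgap10 was lost (difference 1.32, edgeR adjusted p = 0.0562). In CA3-like and CA2-like nuclei, C1ql3 was at most 2.92 CPM and Ipcef1 at most 16.3 CPM in each of the 7 libraries. Of the others, at 12 months, Car12 was there at 18.6 CPM in 3xTg-AD replicate 10 and 3.68, 8.65 and 11.7 CPM in the WT libraries, Arhgap10 at 11.4 CPM and 12.9, 14.4 and 17.5 CPM, and Clmp at 176 CPM and 281, 349 and 383 CPM. The 3xTg-AD libraries had 0, 1 and 68 CA3-like and CA2-like nuclei and the WT libraries 34, 27 and 49, and the part of this composition in the 5 differences was not tested.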

How the results depend on the processing

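The difference in share at 6 months turned positive with nuclei thinned to 2000 UMIs (0.0114 percentage points), at least 3 markers (0.0317), no Slc17a6, Tcf7l2 or Foxp2 UMIs (0.00575) or CA3-like and CA2-like nuclei only (0.0413). At 12 months it turned negative with at least 3 markers (-0.0349) or CA3-like and CA2-like nuclei only (-0.158), and for age with Slc17a7 nuclei as denominator (-0.0240). None of these had an exact permutation p below the threshold, and the cause was not tested. Genes called for genotype at 6 months, genotype at 12 months, age in WT, age in 3xTg-AD and the interaction numbered 7, 167, 80, 8 and 85 with DESeq2 and 154, 838, 351, 309 and 694 without a filter on low counts. In the first 4 of these, in that order, they numbered 0, 5, 0 and 0 with at least 3 markers, 1, 8, 0 and 0 with all 12 libraries in 1 fit, and, chosen after seeing the data, 10, 9, 35 and 9 in libraries with at least 10 CA3-like or CA2-like nuclei and 5, 26, 5 and 0 with the composition covariate. Without Slc17a6, Tcf7l2 or Foxp2 UMIs they numbered 0, 5, 74 and 2 and 6 for the interaction, and with CA3-like and CA2-like nuclei only 42, 52, 15, 56 and 5. In both settings based on CA3-like and CA2-like nuclei, WT at 6 months and 3xTg-AD at 12 months had 1 library each, assumed to vary like the others, so these counts say nothing about stability. Removing doublets gave 0 at 12 months, and thinning the sums gave 15 for age in WT and 0 for age in 3xTg-AD. Without a filter, 100 and 393 genes differed from the other Slc17a7 nuclei at 6 and 12 months, and 69 were called in CA3-like and CA2-like nuclei.

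With each library left out, the share differences ranged from -0.171 to 0.159 at 6 months, -0.0568 to 0.336 at 12 months and 0.0642 to 0.230 for age. The counts ranged from 0 to 2 and 0 to 1213 for genotype, 0 to 218 and 0 to 447 for age in WT and 3xTg-AD, 0 to 475 for the interaction, 0 to 0 and 0 to 491 for the differences from other nuclei, and 7 to 26 in CA3-like and CA2-like nuclei. Uncalled genes changed sign. App was -0.0682 with at least 3 markers and -0.0289 without Slc17a6, Tcf7l2 or Foxp2 UMIs at 6 months, and -0.0208 thinned, -0.00104 with all 12 libraries, -0.0405 in 7 libraries and -0.0419 with the covariate at 12 months. At 12 months Thy1 was -0.221 in CA3-like and CA2-like nuclei, and Mapt was -0.00243 thinned. With each library left out, Mapt ranged from -0.0420 to 0.0997 and App from -0.0358 to 0.0361 at 12 months. In CA3-like and CA2-like nuclei of 7 libraries Thy1 ranged from -0.218 to 0.491 and App from -0.0389 to 0.102. RLE normalization changed no count by over 1.5 times. No paired analysis was possible because the groups compared share no replicate numbers. Thinning to 2000 UMIs left 0 to 13 selected nuclei per library, too few to order the groups.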
